A study of Homo sapiens with 16 samples.

Results

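The first numbered p65 ChIP-Seq libraries of HT29 cells, 1 from mock cells and 1 from ERβ cells, were compared with the libraries numbered 2 and 3 of the same cells, with ERβ status as block. The comparison was made in 200-bp bins of the genome, and a bin entered when its mean signal over the 6 HT29 ChIP libraries was at least 1. Of 15155207 bins on chromosomes 1 to 22 and X of GRCh38, 111598 entered, in 28787 runs of adjacent bins. The threshold separated like values, with the lowest mean inside at 1 and the highest outside at 0.999992.

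HT29 is an established human colorectal adenocarcinoma line, and SW480, used here as an outside measure, is another. Both lines stably carried a mock construct or expressed ERβ (estrogen receptor beta), and p65 binding was measured in 16 libraries. There were 3 ChIP libraries and 1 input library, made without the antibody step, for each line and ERβ status. All ChIP libraries came from cells given TNFα at 30 ng/ml for 30 min without added estrogen and crosslinked with DSG and formaldehyde, so untreated cells were not compared.

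The 4 HT29 groups used here were thus mock replicate 1, ERβ replicate 1, mock replicates 2 and 3, and ERβ replicates 2 and 3. The labels do not state what the libraries of 1 number shared, such as a day, a culture or a sequencing run. The methods call them biological replicates. A difference in the ChIP step, the cells or the sequencing cannot be told apart from the replicate number here, and the ERβ input came from another series of libraries.

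p65, encoded by RELA, is a subunit of NFκB. In resting cells NFκB dimers are held in the cytoplasm by IκB proteins, and TNFα leads to the breakdown of IκB so that the dimers enter the nucleus and bind κB elements. Among the first genes switched on are those of the IκB proteins themselves, which limit the response, and of chemokines that attract neutrophils. In epithelial cells p65 also binds at enhancers far from promoters, often beside AP-1.

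The bins below carry the main contrasts, read from GRCh38 on the forward strand, with a match to a 10-letter κB consensus in capitals where there is one. NFKBIA is a strong promoter site in all libraries and holds a match. CXCL8 is the chemokine promoter with the highest signal and also holds a match. A match is by letters alone and does not mark where p65 binds. The CXCL8 bin also holds ggaatttcct, which departs from the consensus at its last letter and so stands in lower case.

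NFKBIA chr14:35403801-35404000: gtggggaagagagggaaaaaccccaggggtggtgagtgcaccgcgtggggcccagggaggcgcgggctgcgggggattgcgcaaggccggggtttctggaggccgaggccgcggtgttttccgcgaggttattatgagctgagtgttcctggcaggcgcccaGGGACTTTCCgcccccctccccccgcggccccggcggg
CXCL8 chr4:73740401-73740600: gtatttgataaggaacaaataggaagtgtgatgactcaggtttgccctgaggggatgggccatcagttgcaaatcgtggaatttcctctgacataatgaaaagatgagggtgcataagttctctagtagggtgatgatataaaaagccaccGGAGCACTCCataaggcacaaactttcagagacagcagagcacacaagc

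The bin nearest to ATP2B1, at -240734 bp from the gene start, had the largest difference among the called bins named here and holds a match. The bins near SCYL3 and ZMYND8 were enriched in replicate 1 alone, and neither holds a match. The SUSD1 bin was called on the site scale described below in a fit on enriched bins alone and not in the fit on all bins, and it has no match either.

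ATP2B1 chr12:89950001-89950200: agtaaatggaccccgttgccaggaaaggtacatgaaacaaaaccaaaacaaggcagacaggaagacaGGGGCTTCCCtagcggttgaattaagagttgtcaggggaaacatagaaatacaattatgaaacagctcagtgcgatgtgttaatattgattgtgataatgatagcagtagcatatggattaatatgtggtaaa
SCYL3 chr1:169891201-169891400: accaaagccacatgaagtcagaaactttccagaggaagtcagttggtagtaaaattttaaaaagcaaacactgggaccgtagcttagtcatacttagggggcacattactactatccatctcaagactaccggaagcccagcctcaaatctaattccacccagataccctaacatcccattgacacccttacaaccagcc
ZMYND8 chr20:47360201-47360400: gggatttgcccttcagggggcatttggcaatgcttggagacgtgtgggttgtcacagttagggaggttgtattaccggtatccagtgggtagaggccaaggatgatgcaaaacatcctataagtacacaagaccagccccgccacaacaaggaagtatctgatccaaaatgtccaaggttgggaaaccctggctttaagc
SUSD1 chr9:112119601-112119800: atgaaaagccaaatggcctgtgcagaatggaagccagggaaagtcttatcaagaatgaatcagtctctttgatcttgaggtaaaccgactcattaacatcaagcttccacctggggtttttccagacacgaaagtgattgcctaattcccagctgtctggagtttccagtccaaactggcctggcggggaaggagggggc

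The deposited signal counts overlapping tags at each base after a scaling that gives every library 10 M (mega) tags of 100 bp. The tracks hold no read counts, so the number of tags behind a value could not be read from them. ERβ status was checked by the ratio of signal in coding exons to that in introns of ESR2, the ERβ gene, since a construct carries exons alone. The ratio was 1.08 to 1.35 in the HT29 mock ChIP libraries and 4.07 to 7.13 in the ERβ libraries, so the labels held, with the highest ratio in ERβ replicate 1.

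Most of the bins that entered were not p65 sites. Bins under 1.5-fold over input numbered 80137 (71.8%), and 91.1% of them lay on chromosome 8, where input signal was high too. Bins at least 4-fold over the matched input numbered 6220 (5.57%), in 3474 runs, and 41.6% of them held a κB match against 2.90% of bins sampled across the genome. Another 25241 bins lay between these limits.

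Replicate 1 was the stronger pair at p65 sites, and in background bins its mean differed from the others by little. At the 6220 bins at least 4-fold over input, the mean signal was 5.52 in mock replicate 1, and 2.68 and 2.86 in mock replicates 2 and 3. In ERβ cells it was 4.76 in replicate 1, and 2.35 and 2.24 in replicates 2 and 3. Both replicate 1 libraries lay above all 4 others. In bins under 1.5-fold over input the 6 libraries held between 1.296 and 1.324, with a mean log2 difference of 0.0051 in mock and 0.014 in ERβ cells (exact permutation p = 0.111). The mean difference at the 4-fold bins was 0.77 on the log2(signal + 1) scale, with 0.77 in mock and 0.77 in ERβ cells. The exact permutation test within ERβ status gave p = 0.111 (two-sided), the smallest that its 9 arrangements allow. The plot of mean signal by enrichment shows the 3 levels side by side.

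**Figure D1:**
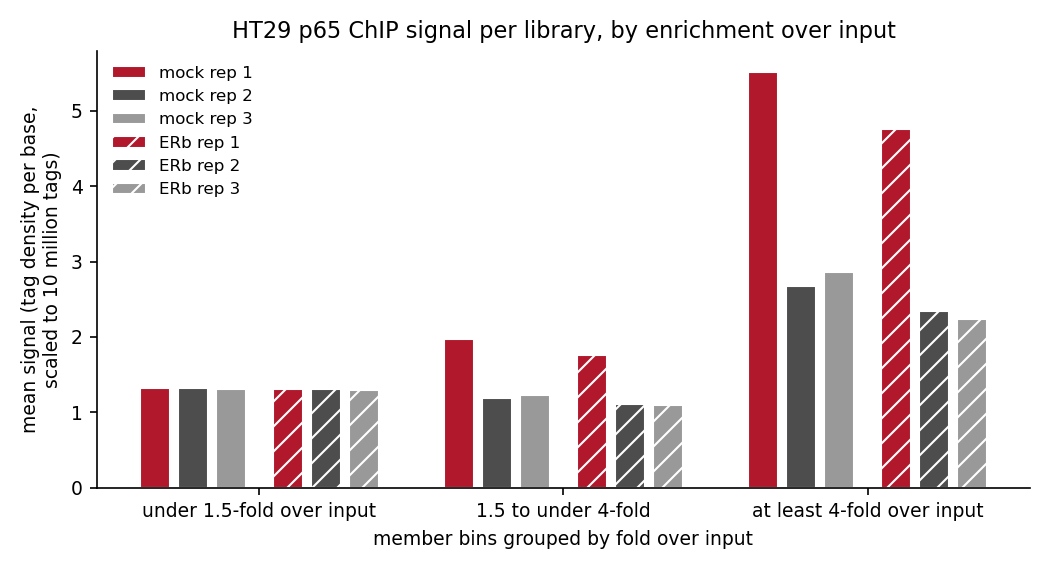
Mean signal per HT29 p65 library (tag density per base, scaled to 10 M tags) in member bins grouped by fold over input, with plain bars for mock, hatched bars for ERβ and red for replicate 1. The 6 libraries lie between 1.296 and 1.324 in bins under 1.5-fold over input, and replicate 1 stands above the other 4 in bins of at least 1.5-fold.

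Per bin, limma with ERβ status as covariate called 14767 of 111598 bins higher in replicate 1 (13.2%) and 226 lower (0.203%), at an adjusted p under 0.05. The mean that admits a bin includes replicate 1, so some bins entered through the libraries that were high there. With bins chosen on replicates 2 and 3 alone, 9519 of 99563 were called higher (9.56%), and the bins so chosen held 10074 of the 14767 calls. With bins chosen on SW480, 9331 of 94371 were called (9.89%). In a fit without chromosome 8, 17399 of 33364 bins were called higher (52.1%) and 77 lower. Of the 6220 bins at least 4-fold over input, 5359 were called higher (86.2%) and 0 lower, with a median log2 difference of 0.78 and a median SE of 0.19. Replicate 1 lay above both other replicates in both ERβ states at 5903 of them (94.9%), while 28.6% of all members did so and 8.36% of all members lay below both. The share called higher was 0.35% below 1-fold, 39.6% at 2 to 3-fold, 80.9% at 4 to 6-fold and 97.0% at 10-fold and over, in strata whose mean also includes replicate 1. With bins and strata both taken from SW480, an alternative chosen after the data had been seen, the share was 0.293%, 24.8%, 46.4% and 67.4% in the same 4 strata, and 52.8% of the 5256 bins at least 4-fold over input there. With both taken from replicates 2 and 3 it was 0.35%, 41.2%, 79.0% and 95.8%, and 83.9% of 3423 bins at least 4-fold over input, though these libraries also enter the contrast. Without mock replicate 1 the bins called higher fell to 5639, and without ERβ replicate 1 to 5537, since 1 library then stands for the pair.

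The largest differences named here were at bins outside annotated promoters, where most bins at least 4-fold over input also lay (32.2% of these were at promoters). The bin at chr12:89950001-89950200 lay in an intron, at -240734 bp from the start of ATP2B1. This is the nearest protein-coding gene and encodes a plasma membrane calcium pump. The bin held a signal of 7.04 in mock replicate 1, and 0.72 and 1.45 in replicates 2 and 3. In ERβ cells the bin held 5.41 in replicate 1, and 1.84 and 1.497 in the other replicates. Bins of this kind were named only where replicate 1 lay outside the range of replicates 2 and 3 in both ERβ states. The lack of overlap was thus set by the choice. Limma gave a log2 difference of 1.62 ± 0.19 (SE, adjusted p = 5.18e-13).

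The bins nearest to REPIN1, SCYL3 and HS3ST1 were also among the largest differences, with log2 differences of 1.53, 1.52 and 1.52. They lay -1889, -2412 and -168136 bp from the gene starts. Of these 3 bins and that nearest to ATP2B1, 3 lay in introns and 1 between genes, and 2 held a κB match.

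The bins called lower were of another kind. None of the 226 reached 3-fold over input. The 5 with the largest fall, named under the same rule, were nearest to ZHX2, WSB1, TRPS1, EXT1 and ZNF716. They lay -10355, -799376, 514521, 25326 and 974723 bp from the gene starts. Their fold over input was between 0.96 and 1.65, and 3 of them were on chromosome 8. In the ZHX2 bin the signal was 0.38 in mock replicate 1, and 1.82 and 1.38 in replicates 2 and 3. The ERβ libraries held 0.48 in replicate 1, and 1.75 and 1.49 in the others. The log2 difference was -0.86 ± 0.19 (SE, limma adjusted p = 0.000216), and its adjusted p was 0.058 without mock replicate 1. The other 4 lost their call without ERβ replicate 1.

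Whether all sites rose by 1 factor was asked on a site scale, log2 of the excess over matched input, divided by a factor per library, plus 1. An excess below 0 was set to 0. The factor is the median ratio to the geometric mean over the 6220 bins, so a site that follows it has no difference. The factors were 1.93, 0.83 and 0.90 for mock replicates 1, 2 and 3, and 1.61, 0.68 and 0.64 for the ERβ replicates. On this scale limma called 0 bins higher and 0 lower of 111598 (0% in each direction), with 3285 bins at an unadjusted p under 0.05, 1916 higher and 1369 lower. The bin nearest to REPIN1, with a site-scale difference of 0.58 ± 0.11 (SE), was not called either. The absence of calls therefore does not show that all sites followed 1 factor. Without mock replicate 1, 1710 bins were called higher, and without ERβ replicate 1, 989. With no input subtraction 205 were called higher and 55020 lower.

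In a fit on the 6220 enriched bins alone, 0 bins were called higher (0%) and 1 lower (0.0161%), with 405 at an unadjusted p under 0.05, 182 higher and 223 lower. The site-scale difference had an SD of 0.25 over these bins, and 94.8% of them lay within 0.5 of 0 in log2. The difference between replicates 2 and 3, each a mean of 2 libraries, had an SD of 0.31 on the same scale. The former sets 2 libraries against 4 and the latter 2 against 2, so at equal noise the former has the smaller SD. The call was the bin at chr9:112119601-112119800 in an intron of SUSD1. Its deposited signal was 24.5 in mock replicate 1, and 15.5 and 15.96 in replicates 2 and 3. In ERβ cells it was 21.5, 16.4 and 13.6. Replicate 1 was still the higher pair there, but the gain was smaller than the common factor, by -0.59 ± 0.10 on the site scale (SE, limma adjusted p = 0.00165). In the fit on all members its SE was 0.26 and it was not called.

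The ratio between replicates was also read over groups of bins. Summed over the 6220 bins, the excess over input in replicate 1 was 2.19 times the mean of replicates 2 and 3 in mock cells, and 2.39 times in ERβ cells. The mock ratio was 2.28 against replicate 2 alone and 2.11 against replicate 3 alone, and the ERβ ratio 2.32 and 2.47. When these bins were ordered by their fold over input in SW480, which the HT29 contrast does not use, the ratio fell from weak to strong. It was 2.79 in mock and 2.95 in ERβ cells at the 281 bins under 1-fold in SW480. It was 2.28 and 2.49 at 2 to 3-fold, 2.09 and 2.36 at 6 to 10-fold, and 1.90 and 2.04 at the 87 bins of 20-fold and over. The limit of 4-fold uses a mean that includes replicate 1 and is not independent of the ratio, above all at weak bins. Over all members, without that limit, the ratio was 2.17 and 1.38 under 1-fold in SW480, 2.42 and 2.92 from 1.5 to 2-fold, and 1.90 and 2.02 at 20-fold and over, so the fall ran from 1.5-fold upward and not from the weakest bins.

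At the enriched bins the ratio of replicate 2 to replicate 3 went from 0.88 under 1-fold to 0.96 at 20-fold and over in mock cells, and from 1.16 to 1.02 in ERβ cells. With bins chosen on SW480 alone (5256 bins at least 4-fold over input there, an alternative chosen after the data had been seen), the ratio fell from 2.16 and 2.38 at 4 to 6-fold to 1.90 and 2.02 at 20-fold and over. These ratios are descriptions over bins of the same 6 libraries, and no test was run on the slope. The plot of ratio against strength in SW480 shows both ERβ states.

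**Figure D2:**
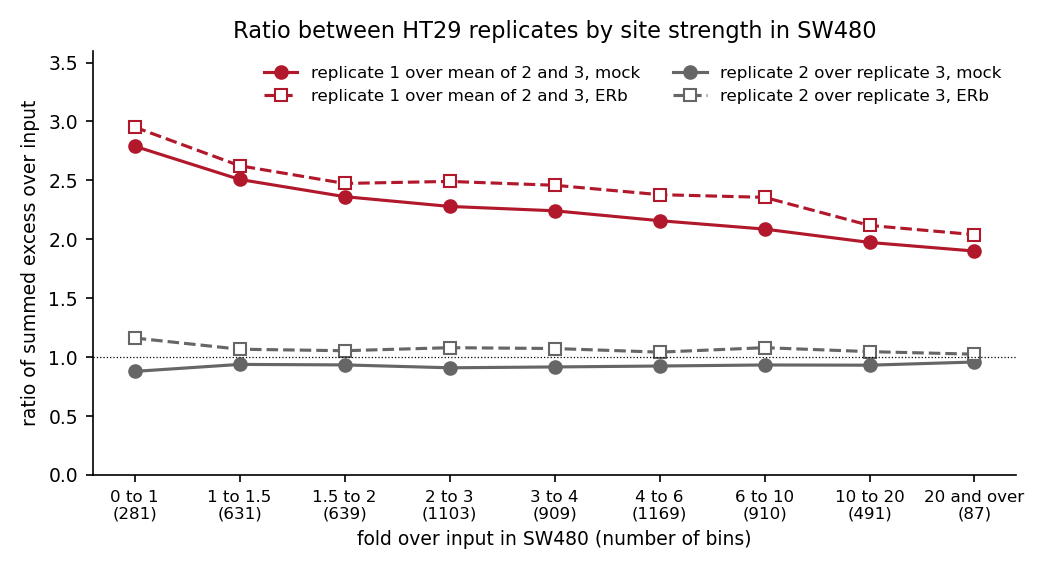
Ratio of summed excess over input between HT29 replicates (vertical axis) at the 6220 bins at least 4-fold over input in HT29, by fold over input in SW480 (horizontal axis, bins per stratum in brackets), filled for mock and open for ERβ. The red lines, replicate 1 over the mean of 2 and 3, fall from 2.79 and 2.95 to 1.90 and 2.04, and the grey lines, replicate 2 over 3, go from 0.88 to 0.96 and from 1.16 to 1.02.

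At promoter bins, from 1 kb upstream to 100 bp downstream of a transcription start, the ratio was 2.11 in mock and 2.43 in ERβ cells. It was 2.25 and 2.36 in introns, 2.25 and 2.41 between genes, and 2.15 and 2.28 in exons. Promoters were thus below introns in mock cells and above them in ERβ cells, but the ERβ contrast depended on the input. In ERβ cells the ratio was 2.43 at promoters and 2.37 at all other bins with the matched input, and 2.36 and 2.35 with the mock input for all libraries. Bins with a κB match had a ratio of 2.13 and 2.29, and bins without a match 2.25 and 2.48. Within bins of 10-fold and over in SW480 the same pair of values was 1.93 and 2.08 with a match against 2.02 and 2.16 without, and within bins under 2-fold it was 2.46 and 2.56 against 2.51 and 2.65.

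AP-1 matches (TGAGTCA on either strand) gave 2.07 and 2.23 in 554 bins. The ratio was 2.35 and 2.65 in the 342 bins with a FOXA match (TGTTTAC), the forkhead factors that bind closed chromatin in gut epithelium, and 2.51 and 2.55 in the 82 bins with an HNF4 match (CAAAGTNCA), a factor of enterocyte identity. Bins without the match had 2.21 and 2.41 for AP-1, 2.18 and 2.38 for FOXA, and 2.19 and 2.39 for HNF4. Over all members, HNF4 bins had 2.78 and 1.88 against 2.23 and 2.26 without a match, so the ERβ direction turned. FOXA bins there had 2.57 and 2.41 against 2.22 and 2.24. Matches to ETS, GC-box, RUNX and CTCF motifs gave 2.00 to 2.22 in mock and 2.28 to 2.47 in ERβ cells at the enriched bins. Of bins sampled across the genome, 3.00% held an AP-1, 3.11% a FOXA and 0.944% an HNF4 match.

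The ratio ran differently with CpG content in the ERβ states. In mock cells the ratio fell from 2.35 in bins with fewer than 2 CpG to 2.08 in bins with 20 or more, and in ERβ cells it went from 2.39 to 2.57. The ERβ input rose over the same bins, from a mean signal of 0.45 to 0.65, while the mock input stayed at 0.47 and 0.46. With the mock input subtracted from all libraries the ERβ ratio went from 2.41 to 2.43. Its part in the ERβ values was not tested further.

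By library, the promoter share of the excess over all members was 34.3%, 33.0% and 35.3% in mock replicates 1, 2 and 3. It was 31.1% in ERβ replicate 1, and 23.2% and 25.2% in ERβ replicates 2 and 3. Replicate 1 thus lay between the others in mock cells and above them in ERβ cells, over members of which most lie on chromosome 8 at the level of the input. The mean difference was 3.48 percentage points (exact permutation p = 0.222, two-sided, smallest possible 0.111), and with the mock input for all libraries it was 0.93 (exact permutation p = 0.556). Without chromosome 8 mock replicate 1 had the lowest share of its state, with 35.0% against 35.7% and 36.8%, ERβ replicate 1 had the highest, with 35.7% against 32.5% and 35.2%, and the mean difference was 0.28 (exact permutation p = 0.889). In bins from 1.5 to under 4-fold over input, chosen on a mean that includes replicate 1, it had the highest share in both states, with 31.1% against 29.5% and 30.4% in mock and 30.0% against 23.2% and 24.7% in ERβ cells (exact permutation p = 0.111).

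At the bins at least 4-fold over input the promoter share was 34.2%, 35.6% and 35.5% in mock cells and 34.1%, 33.0% and 34.0% in ERβ cells. The difference there was -0.38 percentage points (exact permutation p = 0.778). The share of excess in bins with a κB match was 47.7% in mock replicate 1, and 49.2% and 48.9% in replicates 2 and 3. It was 46.3% in ERβ replicate 1, and 48.2% and 48.4% in the others. At these bins replicate 1 was the lowest in both states, by 1.37 percentage points in mock and 2.02 in ERβ cells, and the exact permutation p was 0.111, the smallest possible. In bins from 1.5 to under 4-fold it was the highest in both states instead, with 22.1% against 20.7% and 21.5% in mock and 20.3% against 19.1% in both others in ERβ cells, a mean difference of 1.08 (exact permutation p = 0.111). Over all members the difference in the κB share was 0.65 (exact permutation p = 0.667), and without chromosome 8 it was -3.28 (exact permutation p = 0.111), so its direction depended on the bins summed.

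A stronger pair also passes a fixed threshold at more bins. A bin counted as enriched in a library when it was at least 4-fold over matched input with a signal of at least 1. By this count mock replicate 1 had 15945 enriched bins, and replicates 2 and 3 had 5322 and 6058. ERβ replicate 1 had 11484, and the other ERβ replicates 3600 and 3138. All 6 libraries passed at 1657 bins in 1166 runs, and both replicate 1 libraries with none of the other 4 at 2932 bins in 2620 runs. The latter count depends on the threshold and the input, with 1852 bins at 6-fold and 4502 with the mock input for all libraries, and the profiles, features and genes described next are those of the 2932. The 4 other libraries all passed without either replicate 1 library at 0 bins, and 547 bins passed in at least 1 of the 4 without replicate 1.

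Mean profiles were drawn at the 1220 runs of member bins whose highest bin was enriched in replicate 1 alone, centred on the highest step of the mean of the 6 libraries. The mean centre signal was 3.71 in mock replicate 1 and 3.00 in ERβ replicate 1, and it was 1.499 and 1.58 in mock and 1.28 and 1.25 in ERβ replicates 2 and 3. From 900 to 1000 bp away on either side those 4 libraries held a mean of 0.47 to 0.49, and their peak stood 2.57 to 3.25 times above that level. The centres of the bins enriched in all 6 libraries held 11.1, 5.43 and 5.78 in mock and 8.85, 4.74 and 4.45 in ERβ replicates 1, 2 and 3. The threshold chose the heights between replicates, and the centring used all 6 libraries, so they are given as a description.

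**Figure D3:**
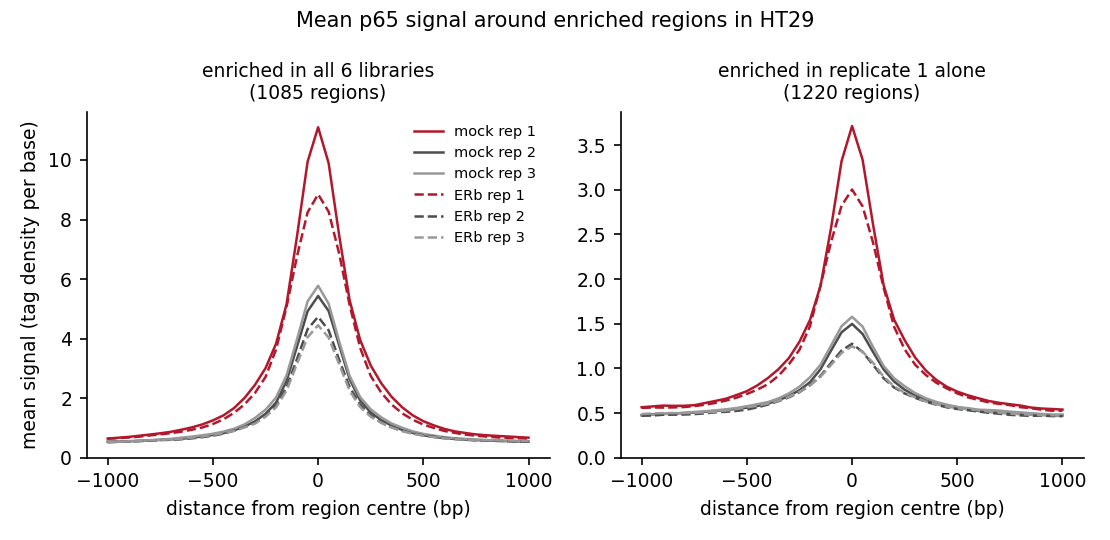
Mean p65 signal (tag density per base) against distance from the region centre (bp) at 1085 regions enriched in all 6 HT29 libraries and 1220 regions enriched in replicate 1 alone, solid for mock, dashed for ERβ and red for replicate 1; the vertical axes differ. Replicates 2 and 3 also peak at the regions enriched in replicate 1 alone, with centres of 1.25 to 1.58.

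The libraries of SW480 had no part in choosing these bins. At the bins enriched in HT29 replicate 1 alone, the 6 SW480 p65 libraries held a mean log2(signal + 1) of 1.04 ± 0.21 (SD, n = 6) against 0.57 in the 2 SW480 inputs (exact permutation p = 0.0714, smallest possible 0.0357). At the bins enriched in all 6 HT29 libraries they held 2.06 ± 0.43 (SD, n = 6) against 0.62 (exact permutation p = 0.0357). Both permutations ran over 28 arrangements of these libraries, without ERβ status as block. At the former bins the ChIP libraries held 0.82 to 0.91 in mock and 1.00 to 1.32 in ERβ cells. SW480 was at least 4-fold over input at 11.97% of the former bins (95% Clopper-Pearson interval 10.8 to 13.2%) and at 69.3% of the latter (67.1 to 71.6%). These intervals treat bins as independent and cover counting error alone.

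Features that the threshold did not use directly were set beside each other for the bins enriched in replicate 1 alone and the bins shared by all 6 libraries. The threshold does use the matched input. At bins at least 4-fold over input the mean ERβ input was 0.57 at promoters and 0.49 elsewhere, and the mock input 0.47 and 0.46. Promoters made up 27.0% of the bins enriched in replicate 1 alone (25.4 to 28.6%) and 32.8% of the shared bins (30.5 to 35.1%), against 4.34% of genome bins. κB matches stood in 25.0% (23.5 to 26.6%) and 56.5% (54.1 to 59.0%), and AP-1 matches in 6.86% and 12.7%. The median distance to a transcription start was 14331 and 8752 bp.

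These classes differ in mean fold over input, so bins of like mean fold were set side by side. From 4 to 6-fold over input, 25.4% of the 531 bins enriched in replicate 1 alone were at promoters (21.8 to 29.4%) and 32.1% of the 3028 other bins (30.4 to 33.8%). κB matches stood in 28.2% and 35.4%. From 2 to 4-fold, promoters were 27.3% of 2400 bins (25.6 to 29.2%) and 30.3% of 12754 (29.5 to 31.1%), and κB matches 24.3% (22.6 to 26.1%) and 23.3% (22.5 to 24.0%). Bins of like mean fold still differed in SW480, with a median fold over input of 2.31 against 2.83 from 4 to 6-fold and, the other way, 1.84 against 1.71 from 2 to 4-fold. The median ERβ input was also lower in the bins enriched in replicate 1 alone, with 0.42 against 0.48 from 4 to 6-fold and 0.44 against 0.54 from 2 to 4-fold. The median mock input was 0.46 against 0.42 from 4 to 6-fold, and 0.46 in both from 2 to 4-fold. The part of the input in these shares was not tested. No test was run on the shares, since the class itself comes from the contrast. The plot of shares shows these pairs.

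**Figure D4:**
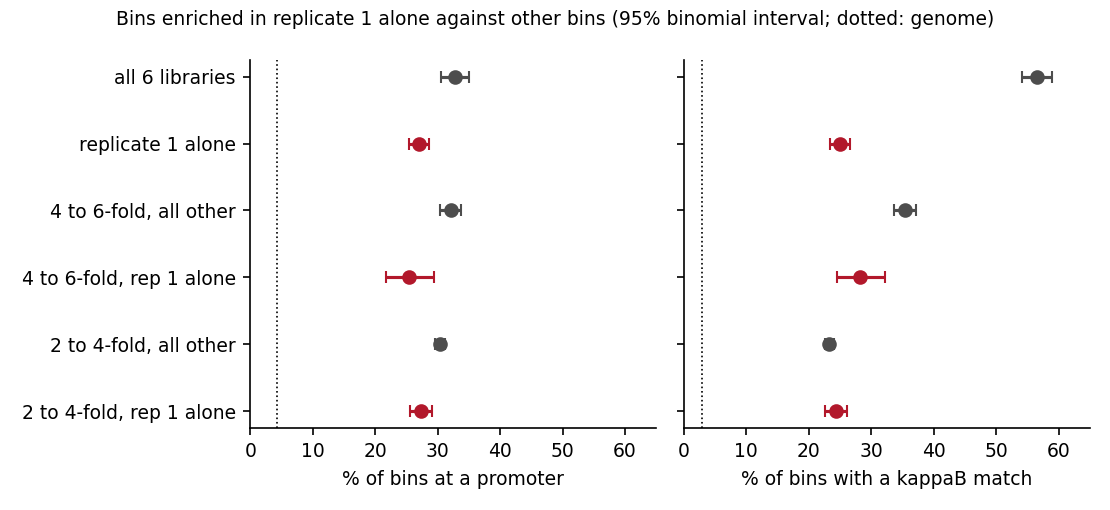
Percent of bins at a promoter (left) and with a κB match (right) for bins enriched in all 6 libraries, bins enriched in replicate 1 alone (red) and other bins of like mean fold over input, with 95% Clopper-Pearson intervals; dotted lines mark the genome at 4.34% and 2.90%. The κB share of bins enriched in replicate 1 alone is 25.0%, and that of bins shared by all 6 libraries 56.5%.

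The nearest protein-coding genes overlapped in part. The bins enriched in all 6 libraries were nearest to 1044 genes and the bins enriched in replicate 1 alone to 2063, with 556 genes in both lists, which is 53.3% of the first and 27.0% of the second. All members together were nearest to 6828 genes. The overlap was not set against an expected value. Of the 2932 bins enriched in replicate 1 alone, 360 (12.3%) touched a bin enriched in all 6 libraries.

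The 5 strongest regions enriched in replicate 1 alone included 4 on chromosome 8, where the input stood at 1.29 to 2.01 and a 4-fold excess needs more signal. They were nearest to FBXO32, DENND3, MYC and TRIB1, at -40094, 13097, 606155 and 253154 bp from the gene starts. The region near FBXO32, a ubiquitin ligase gene, held 17.0, 6.26 and 6.38 in mock replicates 1, 2 and 3, and 11.5, 4.32 and 3.70 in the ERβ replicates. Outside chromosome 8, the strongest was chr20:47360201-47360400, between genes and nearest to ZMYND8, a chromatin reader gene. Its signal was 10.2, 3.73 and 4.28 in mock and 9.59, 3.27 and 3.38 in ERβ replicates 1, 2 and 3. All 4 weaker libraries there stood above the inputs, which held 1.18 and 0.85.

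Bins of known NFκB target genes rose in replicate 1 with few exceptions, and none was called on the site scale, where 0 of all 111598 members were. Of 20 genes of NFκB feedback and signalling, all had a member bin within the window searched, and 19 of 20 were called higher in replicate 1 (0 lower) on the deposited scale. At bins at least 4-fold over input 86.2% of all members were called, and at 10-fold and over 97.0%. All 17 of the list's bins at least 4-fold over input were called. At the 17 of these bins at least 4-fold over input the median deposited difference was 0.88, beside 0.78 over all 6220 such bins. On the site scale their median was -0.17, beside 0.01 over all such bins and -0.08 over those of 10-fold and more, and 1 of the 17 stood above 0. This median depends on the factor, and was -0.01 with the factor taken from the strongest 10% of bins by SW480 signal.

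NFKB2, which encodes the p100 precursor, had the highest signal of this list. Its promoter bin at chr10:102394401-102394600 held 31.2, 16.6 and 19.1 in mock replicates 1, 2 and 3, and 28.2, 14.3 and 16.8 in the ERβ replicates. Replicate 1 exceeded the other libraries without overlap, and the log2 difference was 0.80 ± 0.11 (SE, limma adjusted p = 5.58e-10).

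NFKBIA encodes IκBα, the inhibitor that NFκB itself induces. Its promoter bin held 22.8, 10.7 and 13.2 in mock replicates 1, 2 and 3 and 24.3, 10.4 and 10.4 in the ERβ replicates. The log2 difference was 1.01 ± 0.13 (SE, limma adjusted p = 1.22e-11), and the site-scale difference -0.10. The promoters of NFKBIZ, which encodes a nuclear IκB protein, NFKBIB, another IκB gene, and BIRC3, an inhibitor of apoptosis, rose by 0.92, 0.79 and 0.92. BIRC2, the neighbour of BIRC3, was the 1 gene of the list not called, with 1.70, 1.88 and 1.72 in mock and 1.62, 1.60 and 1.55 in ERβ replicates 1, 2 and 3.

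The list of chemokines, cytokines and adhesion genes had the lowest median of the 7 lists on both scales among bins at least 4-fold over input, and the difference between lists was not tested. It was the lowest in 17 of 18 fits on the deposited scale and in 19 of 20 on the site scale, with the main fits counted. The exception on the deposited scale was the fit without mock replicate 2. On that scale, fits that change only the bins tested, the trend or the ERβ covariate leave the difference of a bin as it was. They left the chemokine median at 0.65, so the counts are not independent repeats. Without ERβ replicate 1 the site-scale median of the chemokine list was -0.19, above the -0.22 of the NFκB list. Of 20 genes of this list, 14 had a member bin, in 13 distinct bins, of which 12 were called higher and 0 lower. Among them were all 11 bins at least 4-fold over input, beside 86.2% of all 6220 such bins. Of these 11 bins all but 1 were promoter bins, the exception being an intergenic bin nearest to LIF, and ICAM1 was the adhesion gene among them. Over the 11 bins the median deposited difference was 0.65 and the median site-scale difference -0.37, from -0.50 to 0.12, with 1 of 11 above 0. At the CXCL8 promoter, the gene of interleukin 8, the signal was 16.4, 9.40 and 9.47 in mock replicates 1, 2 and 3. It was 12.6, 8.92 and 9.79 in the ERβ replicates.

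The replicate 1 libraries were the highest at CXCL8, and the log2 difference was 0.56 ± 0.14 (SE, limma adjusted p = 0.00151). CCL20, which draws CCR6-bearing lymphocytes, held 14.96, 9.20 and 8.83 in mock and 11.5, 6.49 and 8.19 in ERβ replicates 1, 2 and 3, a log2 difference of 0.63 ± 0.15 (SE, limma adjusted p = 0.000577). CXCL1, CXCL2 and IL32 rose by 0.56, 0.65 and 0.68, and their site-scale differences were -0.50, -0.42 and -0.39. The chemokine list median of -0.37 was -0.22 with the factor from the strongest 10% of bins, and with no input subtraction the medians of the NFκB and chemokine lists were -0.07 and -0.25. The first was -0.10 without ERβ replicate 3. Without mock replicate 1 the differences of CXCL8, CCL20, CXCL1 and CXCL2 were 0.39, 0.59, 0.45 and 0.47 with adjusted p of 0.327, 0.0786, 0.281 and 0.246.

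In the other 5 lists every bin at least 4-fold over input was called higher, beside 86.2% of all such bins, and the rest lay in strata where 1.46% to 59.9% of all members were called. Among 20 immediate-early and AP-1 genes, 12 of the 15 with a member bin were called higher, and the median site-scale difference over 9 enriched bins was -0.001. IER2 had the largest of these at 0.57, with 3.73, 0.85 and 1.21 in mock and 2.09, 0.47 and 0.98 in ERβ replicates 1, 2 and 3, and it was enriched in replicate 1 alone, as was JUN. It is singled out here after its values were seen. The DUSP16 bin, in an intron and the strongest of the list, rose by 1.01 with a site-scale difference of -0.05.

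Of 18 circadian clock genes, 10 of 15 with a bin were called higher, with a median site-scale difference of -0.15 over 5 enriched bins. PER1, a repressor of the clock, rose by 0.95 ± 0.18 (SE, limma adjusted p = 1.24e-05), and CREB1 by 0.76 ± 0.16 (SE, limma adjusted p = 4.66e-05). Without ERβ replicate 1 their limma adjusted p were 0.0945 and 0.162. The strongest of the clock list was CREB1, with 11.8, 8.42 and 7.30 in mock and 12.8, 6.39 and 5.49 in ERβ replicates 1, 2 and 3. Of 18 genes of adhesion, matrix and migration, 12 of 18 were called higher, with a median site-scale difference of -0.01 over 9 enriched bins.

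Of 16 colon identity factors, 7 had a bin and 4 were called higher, and their median site-scale difference over 4 enriched bins was 0.20. ELF3, an epithelial ETS factor, held 11.1, 4.57 and 5.43 in mock and 11.9, 2.82 and 4.71 in ERβ replicates 1, 2 and 3, a log2 difference of 1.24 ± 0.17 (SE, limma adjusted p = 3.96e-10). EHF, its relative, rose by 0.87 ± 0.15 (SE, limma adjusted p = 1.28e-06), with a site-scale difference of -0.19 against 0.36 for ELF3. Of 20 housekeeping genes, 12 had a bin and 5 were called higher, with 2 enriched bins. EEF1A1, a translation factor gene, held 3.30, 1.44 and 2.88 in mock and 1.87, 2.78 and 2.14 in ERβ replicates 1, 2 and 3, so the groups overlapped. The plot of listed genes sets both scales beside each other.

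**Figure D5:**
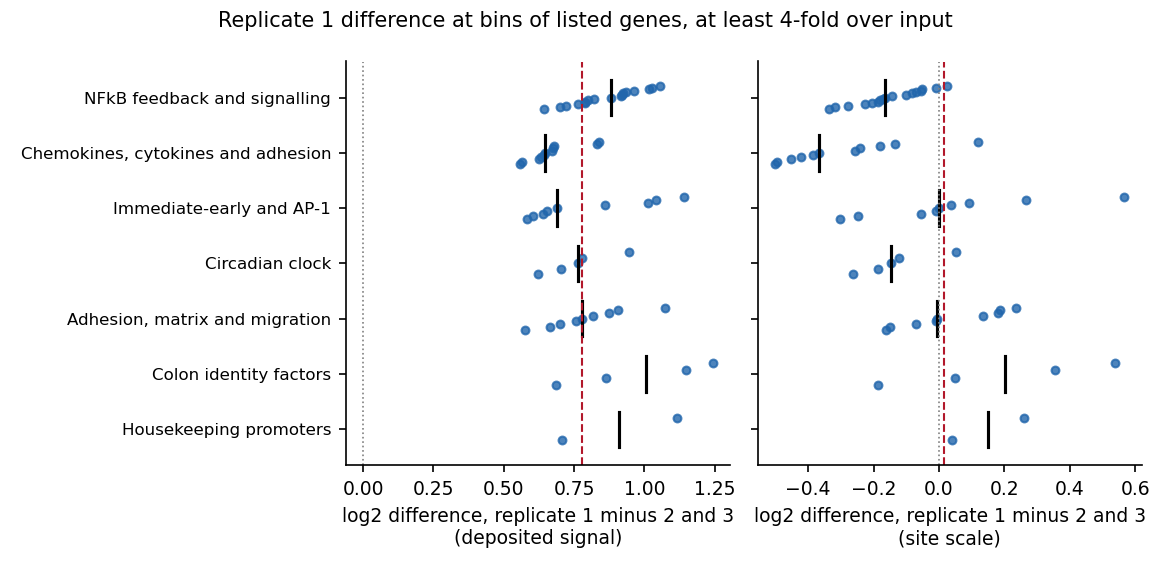
Log2 difference of replicate 1 from replicates 2 and 3 (horizontal axes) at bins of listed genes at least 4-fold over input, on the deposited scale (left) and on the site scale (right); points are bins, black ticks list medians and the red dashed line the median of all 6220 such bins. On the deposited scale all points lie above 0, and on the site scale the chemokine list has its median at -0.37.

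The difference of replicate 1 was called unlike between the ERβ states at 7 bins. The interaction of replicate 1 and ERβ status was called at 2 bins higher in ERβ cells (0.00179%) and 5 lower (0.00448%), with 4676 bins at an unadjusted p under 0.05. None of the 7 was at least 2-fold over input. The bins called higher lay at chr3:93470201-93470400 and chr3:93470801-93471000, where the signal of the inputs was 21.9 to 49.5.

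The libraries numbered 1 of SW480 were not the stronger pair of their line. In the same 111598 bins, SW480 replicate 1 was called higher at 1 bin (0.000896%) and lower at 158 (0.142%), and at the 6220 enriched HT29 bins its median log2 difference was -0.32. This pools unlike ERβ states. At the centres of regions enriched in all 6 HT29 libraries, SW480 replicates 1, 2 and 3 held 3.95, 4.44 and 4.47 in mock cells. In ERβ cells they held 5.04, 10.2 and 8.70. The contrast of both lines was called higher in HT29 at 11910 bins (10.7%) and lower at 140 (0.125%). Members were chosen on HT29 signal, and 63931 of the 111598 were under 1-fold over input in SW480. The choice of bins thus favours calls higher in HT29.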

How the data were processed

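The members and the gene lists were chosen with earlier results of these data known. The authors aligned unique reads to GRCh38 with STAR and deposited, per library, a HOMER coverage signal of tag density, scaled to 10 M tags and to 100 bp fragments, with stretches under 0.05 left out. The study's edgeR test needs counts and was not run. The signal was averaged here in 200-bp bins with Python 3.11.15, numpy 2.4.6, pandas 2.3.3, numba 0.67.0 and pysam 0.24.0. Bins were fitted with limma 3.58.1 in R 4.3.3, with mean-variance trend and ERβ status, on log2(signal + 1), and p-values were adjusted over all bins tested by Benjamini-Hochberg. For fold over input, the input was raised at least to its genome mean. Exact permutations and Clopper-Pearson intervals used scipy 1.17.1, and figures matplotlib 3.10.9. Scripts were tested on simulated data.

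Classes and nearest genes came from GENCODE release 44, in the order promoter, exon, intron, intergenic. Of 132 genes in 7 lists, each was read at its highest bin from 1 kb upstream to 100 bp downstream of a start, else from 50 kb upstream to 2 kb downstream. Named were up to 5 genes per list by mean signal, the 5 largest called differences per direction and the 5 strongest regions enriched in replicate 1 alone. Limma p-values rest on the spread between the libraries of each fit, with variance shared across bins. The contrast of both lines used the ChIP libraries of both, and the SW480 permutations used 6 ChIP and 2 input libraries. Alternatives covered pseudocount, bin choice, grid, input, scaling, covariate, trend and each library left out. Some named bins are not reported here.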

Additional observations from a re-analysis of the deposited data

Results flagged for a closer look

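The difference of replicate 1 from replicates 2 and 3 was tested between cell lines and compared between ERβ states, on the deposited scale. Between ERβ states each side has 1 replicate 1 library, so the spread comes from replicates 2 and 3 alone. Between lines the difference was called higher in HT29 at 11910 bins and lower at 140 of 111598, in members chosen on HT29 signal, which favours calls in HT29. At the 6220 bins at least 4-fold over input the median difference was 0.78 in HT29 and -0.32 in SW480, with both ERβ states pooled. Between ERβ states in HT29 it was called higher in ERβ cells at 2 bins and lower at 5. These bins lay under 2-fold over input. In those nearest to CWH43, OR4C12, ALG10B and WSB1, the signal of ERβ replicate 1 was between 0 and 0.08. They lay 1279461, -1234165, -1235262 and -2219576 bp from the gene starts.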

How the results depend on the processing

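No paired analysis was possible because the replicate number is itself what is compared. On the deposited scale the bins called higher and lower, 14767 and 226, were 6596 and 32 with a mean signal of at least 2, 9519 with bins chosen on replicates 2 and 3, 9331 and 104 with bins chosen on SW480, 6722 and 79 with 1 bin per region and 5840 and 0 with bins at least 4-fold over input. Each tests fewer bins, and the choice on replicates 2 and 3 also leaves out bins that entered through replicate 1. The share called at bins at least 4-fold over input, 86.2%, was 83.9% with bins and fold from replicates 2 and 3 and 52.8% with both from SW480, and the cause was not tested. Without chromosome 8, chosen after seeing the data, they were 17399 and 77 of 33364. With 1 library left out at a time the counts ran from 5537 to 14205 and from 66 to 263. On the site scale, 0 and 0 became 205 and 55020 with no input subtraction and 0 and 1 at bins at least 4-fold over input. Without subtraction, bins at the level of the input are divided by the factor too, so those calls do not measure p65 sites alone. With 1 library left out the site scale gave 0 to 1710 higher and 0 lower. The 1710 came without mock replicate 1 and another 989 without ERβ replicate 1, which leaves 1 replicate 1 library, assumed to vary like the others, and the cause was not tested. The difference in promoter share was 0.08 to 6.87 percentage points with 1 library left out and -0.38 at bins at least 4-fold over input. That in κB share was -0.64 to 1.93 and -1.70, and without chromosome 8, added after seeing the data, these were 0.28 and -3.28, while that in mean log2 signal was 0.136 to 0.1398 and 0.77. Bins enriched in replicate 1 alone, 2932, numbered 1852 at 6-fold and 4502 with the mock input for all. The excess ratio of 2.19 in mock and 2.39 in ERβ cells was 1.99 and 2.08 with no input subtraction and 2.07 and 2.27 at bins chosen on SW480, and 2.11 to 2.28 and 2.32 to 2.47 with 1 library left out. Of 813 refits of 50 named bins, 778 kept direction and call, 31 lost the call and 4 turned, none of them called before. The latter were EEF1A1 (from -0.26 to 0.48 with 1 library left out, below 0 without mock replicates 1 and 2), HNF4A (-0.14 to 0.71, below 0 without ERβ replicate 1) and RPLP0 (-0.00480 to 0.23, below 0 without mock replicate 1). Refits that change only the bins tested, the trend or the ERβ covariate cannot move the difference of a bin, and they are counted among the 813. Most of the 31 losses came from leaving out a replicate 1 library. The median site-scale difference of the NFκB list was -0.01 with the factor from the strongest 10% of bins by SW480 signal. The tracks hold no read counts, and a bin that did not pass in the weaker libraries may hold binding, and 9 arrangements of 6 libraries cannot reach an exact p of 0.05.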
